A study of Phragmites australis with 7 samples.

Results

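PaChr24.10, PaChr24.16, PaChr24.24, PaChr24.113, PaChr24.119, PaChr24.158 and PaChr24.256 are 7 genes of the B chromosome of the common reed (*Phragmites australis*), out of 285 B chromosome rows and 42095 features in the single-cell matrices. They were chosen by their counts of unique molecular identifiers (UMIs) in these same libraries, namely almost none in the European libraries and clear counts in every invasive one, so the difference between the populations is described here and not tested. Neither the matrices nor the gene table used here gives any of the 7 a function, and 0 of them matched that table, so no role is stated for them.

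B chromosomes are extra chromosomes that some plants of a species carry beside the standard set. They are usually dispensable, do not pair with the standard chromosomes and can be passed on more often than Mendelian inheritance would give, so that plants of one species can differ in how many they hold. Their genes mostly arose as copies of genes on the standard chromosomes. Many are thought to be little expressed, and in maize and rye the number of B chromosomes is known to alter expression elsewhere in the genome.

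The single-cell libraries came from 6 untreated plants of a common garden. EU60, EU78 and EU620 belong to the European population, and NAint61, NAint113 and NAint191 were sampled from the invasive population of North America. Each library came from pooled buds of 1 plant, so that a library is 1 replicate, and the protocol in the labels names the rhizome tip where the tissue label says shoot. In addition, 1 section of a bud of NAint61 was measured by spatial transcriptomics, without a replicate. The batch label was 1 for EU60, EU78 and NAint113, 2 for EU620 and NAint191, and 3 for NAint61, so batch 3 holds no European library.

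The matrices held between 95335255 and 132478792 UMIs per library. After removal of low-quality cells and doublets, 58021 of 67194 cells were kept, with a median depth from 5979.5 UMIs per cell in NAint113 to 11625 in EU620. Libraries shared between 14 and 52 barcodes in each of the 15 pairs, at most 0.451% of a library. How many B chromosomes each plant carried was not measured in these files, so the number of gene copies and the RNA made per copy cannot be told apart from these counts.

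PaChr24.158 had the most UMIs of the 7 genes. Its level, in UMIs of the gene per 1000000 UMIs of all genes in the retained cells (CPM), reached 28.3 for NAint61, 7.21 for NAint113 and 10.09 for NAint191, against 0 in every European library. The mean of the invasive libraries was 15.2 ± 11.43 CPM (SD, n = 3), and NAint61 stood well above the other two. A count of 0 over the European libraries together allows up to 0.00880 CPM, taking 3 counts over the group as the floor, so PaChr24.158 was at least 1615-fold higher in the pooled invasive libraries.

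PaChr24.119 and PaChr24.10 also had 0 UMIs in every European library. PaChr24.119 had 6.06 CPM in NAint61, 4.96 in NAint113 and 3.256 in NAint191 (mean 4.76 ± 1.41, SD, n = 3), at least 536-fold above the same floor. PaChr24.10 had the fewest, 77 UMIs in NAint61, 131 in NAint113 and 117 in NAint191, which is 1.01, 1.273 and 1.36 CPM. Its invasive libraries lay closest together of the 7 genes, with a highest level 1.35 times the lowest, and the pooled level was at least 139-fold above the floor.

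The other 4 genes had a few European UMIs. PaChr24.256 had 13.0, 6.12 and 3.96 CPM in NAint61, NAint113 and NAint191, and its European UMIs numbered 2 for EU60, 4 for EU78 and 5 for EU620. PaChr24.24 had 12.73, 4.46 and 4.74 CPM in the same invasive libraries, and 3, 3 and 1 UMIs in the European ones. The ratio of the pooled invasive to the pooled European level was 229 for PaChr24.256 (95% interval 128 to 460) and 337 for PaChr24.24 (163 to 841). Both genes were highest in NAint61.

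PaChr24.113 followed another order of plants. Its level was 3.329 CPM for NAint61, 1.48 for NAint113 and 8.98 for NAint191. This was a 6.08-fold range within the invasive population, the widest of the 7. Its only European UMIs were 4 in EU620, which gave a ratio of 379 (147 to 1391).

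PaChr24.16 was the least silent in the European plants. Its European UMIs numbered 18 for EU60, 11 for EU78 and 36 for EU620, which is 0.154, 0.0891 and 0.358 CPM, and its invasive levels were 10.7, 6.82 and 8.75 CPM in NAint61, NAint113 and NAint191. The ratio of pooled levels was 45.0 (35.1 to 58.5), the lowest of the 7. All intervals here are exact, at the 95% level, and cover counting error only.

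**Figure D1:**
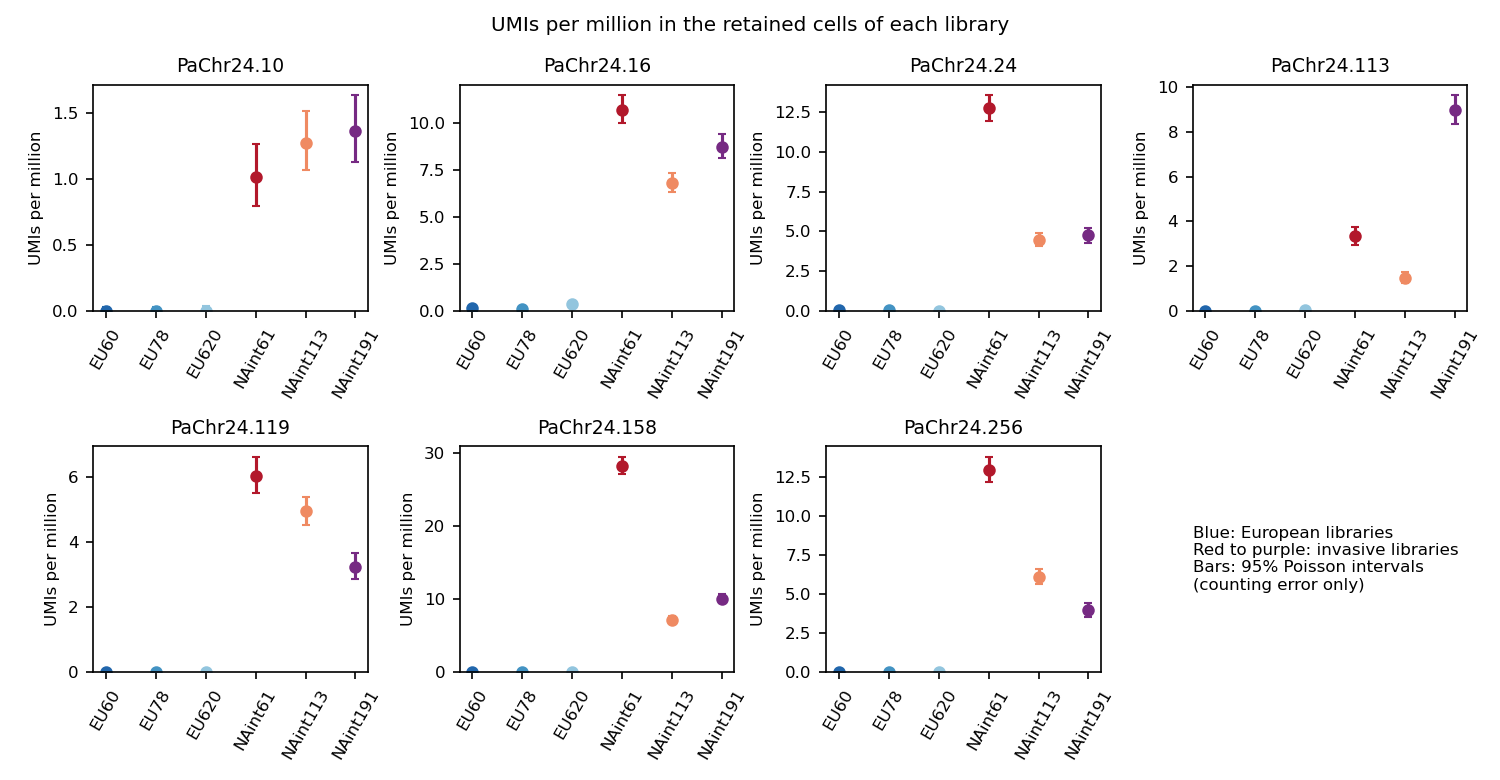
CPM (vertical axis, from 0, with its own scale in each panel) of the 7 genes in the retained cells of the 3 European (blue) and 3 invasive libraries (red to purple), with 95% Poisson intervals. PaChr24.158, PaChr24.24 and PaChr24.256 were highest in NAint61, PaChr24.113 in NAint191, and no European library exceeded 0.358 CPM.

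The invasive libraries were above all European ones for 7 of the 7 genes, which the choice of the genes fixed; among the 25006 genes with at least 30 UMIs in each invasive library, 3.8% were. Within batch label 1 the summed level of the 7 genes was 0.171 CPM in the European libraries and 32.3 in the invasive one, and within batch label 2 it was 0.458 and 41.1. Over the 3 libraries of each population it was 0.267 ± 0.167 and 49.5 ± 22.6 CPM (SD, n = 3).

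The wording of the choice would have admitted other B genes. Of the 285 B chromosome rows, 106 had 0 UMIs in every library and 50 had at least 30 UMIs in each invasive library, counted over all deposited barcodes. Of those 50, 28 had a European to invasive ratio at or under that of PaChr24.16 (0.0222), 21 of them outside the 7, and 12 of the 21 had 0 European UMIs. PaChr24.121, PaChr24.127 and PaChr24.277, named after their values were seen, had 2986, 1931 and 735 invasive UMIs and no European one. Just inside lay PaChr24.16, and just outside PaChr24.128 (0.0244), PaChr24.61 (0.0279) and PaChr24.94 (0.0280). Over the whole genome the same limit, in the retained cells, was met by 29 of 25006 genes, 24 of them on the B chromosome.

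Levels of 5 other B genes are given beside them. PaChr24.43 is a truncated copy of an importin alpha 3 gene, which the study takes to be likely a pseudogene. It had 133 UMIs in the European libraries together, 120 of them in EU60, 4 in EU78 and 9 in EU620. Its level in the invasive libraries was 180 ± 24.38 CPM (SD, n = 3). PaChr24.240 and PaChr24.218, both copies of the cohesin subunit gene SCC3, had 98.9 ± 31.3 and 22.9 ± 5.29. PaChr24.82, which the study describes as only partly homologous to the transcription factor gene GATA2, had 19.2 ± 2.45. PaChr24.262, which encodes a DDE endonuclease homologue, had 11.98 ± 4.287. The pooled ratio of the populations ran from 113 for PaChr24.82 to 1226 for PaChr24.240, a range that overlaps that of the 7 genes. Levels of different genes were not scaled by length and are not compared further.

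European UMIs of the 7 genes were spread thinly. Each of the 67 PaChr24.16 UMIs in the deposited European barcodes was the only one in its barcode, and the same held for the 7 of PaChr24.24, the 4 of PaChr24.113 and the 12 of PaChr24.256. None of those barcodes occurred in an invasive library. Of the 65 PaChr24.16 UMIs in retained European cells, 23 were in epidermis-like cells, 15 in vascular tissue-like cells and 12 in vascular parenchyma-like cells, classes that differ in their number of cells and in depth. Whether near-identical copies on other chromosomes share reads with PaChr24.16 was not tested.

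In the invasive libraries the 7 genes were seen in a minority of cells. A UMI of any of them was present in 40.0% of retained cells of NAint61, 19.0% of NAint113 and 27.8% of NAint191, against 0.210%, 0.156% and 0.693% of the European ones. Thinned to 2000 UMIs per cell, the shares were 13.3%, 5.75% and 7.98% in the invasive libraries and 0.0212%, 0.0387% and 0.147% in the European ones. For genes at 0 in the European libraries, 0 of 28963 cells allows a share of up to 0.0104% of cells with a UMI. The European shares are low by the choice of the genes and give no measure of free RNA within an invasive library, whose part in the shares was not tested.

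PaChr24.158 was found in the most cells, 19.5% of NAint61, 4.77% of NAint113 and 8.38% of NAint191. At the other end, PaChr24.10 was found in 1.100%, 0.960% and 1.23%. Most positive cells held a single UMI, from 65.7% of those with PaChr24.158 in NAint61 to 97.3% of those with PaChr24.10 in NAint61, and no cell held more than 10 UMIs of any of the 7. The 10 cells with the most UMIs carried at most 16.4% of a gene's UMIs in a library, for PaChr24.113 in NAint113, where 1 cell held 9.

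Cells with more than 1 of the genes were counted against their depth. Within 10 bins of cells of like depth, 13 of the 21 pairs had more cells with both genes than the product of their shares, summed over the invasive libraries, and 12 pairs did so in all 3 libraries. The ratio ran from 0.818 for PaChr24.10 with PaChr24.256 to 1.31 for PaChr24.119 with PaChr24.256. For PaChr24.24 with PaChr24.158, 450 cells had both where 344 would follow from the shares. All 6 pairs with PaChr24.10 were under 1 in the sum, but each was above 1 in at least 1 library. The ratio was not computed for pairs of other genes. Depth still varies within a bin, and cell class was not held. These ratios are therefore descriptions of sparse counts, and the count of pairs is not read as a property of the genes.

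Cells were grouped into 8 classes, and the invasive libraries alone were used to ask where the genes were expressed. The class names rest on marker lists that the study drew from these same samples, and clusters without enough markers stayed unnamed. UMIs were summed per library and class, and each class was compared with the mean of the other classes by the quasi-likelihood test of edgeR with the plant as a block, over 30681 genes. A gene was called at a Benjamini-Hochberg adjusted p under 0.05 and a log2 difference past 1. By the test of any difference among classes, 6 of the 7 genes passed, where 68.1% of all genes did. Of the 56 pairs of gene and class, 6 were called, next to 12% of pairs over all genes. Neither count is read as a property of the 7 genes as a set, and the classes are given gene by gene.

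PaChr24.256 was higher in meristem-like cells, the dividing tissue of the bud, and in G2/M phase-like cells, which are about to divide. In meristem-like cells it had 38.8 CPM in NAint61, 27.1 in NAint113 and 25.0 in NAint191, and in G2/M phase-like cells 23.2, 29.8 and 16.11. Every other named class was below these values in the same library, the highest being ground meristem-like cells of NAint61 at 14.44, while the cells left unnamed reached 24.1597 in NAint61. The log2 difference was 2.07 ± 0.210 (SE) in meristem-like cells (edgeR adjusted p = 2.04e-07) and 1.193 ± 0.259 in G2/M phase-like cells (edgeR adjusted p = 0.00109). Both calls held whichever library was left out, and 5.2% and 8.05% of all genes were called higher in these classes. In the meristem-like cells of NAint61, 54.6% had a UMI of PaChr24.256, at a median depth of 26604 UMIs, against 24.157% in NAint191 at 13262 UMIs.

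PaChr24.113 had its highest mean in mesophyll-like cells, the photosynthetic tissue of the leaf. It had 7.86 CPM there in NAint61, 5.68 in NAint113 and 26.5 in NAint191, and in epidermis-like cells 1.37, 0.826 and 3.42. The cells left unnamed had a mean of 9.39 CPM and at least 6.29 in each library, which is above mesophyll-like cells in NAint113. The log2 difference was 1.65 ± 0.25 (SE) in mesophyll-like cells (edgeR adjusted p = 2.74e-05) and -1.23 ± 0.285 in epidermis-like cells (edgeR adjusted p = 0.00148). Over all genes 8.62% were called higher in mesophyll-like cells and 9.48% lower in epidermis-like cells. Without NAint61 the epidermis call was lost (log2 difference -1.09, edgeR adjusted p = 0.0690), while the mesophyll call held whichever library was left out.

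The order of the plants for PaChr24.113 was the same in every class. NAint191 was the highest invasive library in 8 of 8 classes for PaChr24.113, and NAint61 in 8 of 8 for PaChr24.158. NAint61 was also highest in 7 of 8 classes for PaChr24.24 and in 6 of 8 for PaChr24.119 and PaChr24.256. With 1 library per plant, plant, library and, for NAint61, batch label cannot be told apart.

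**Figure D2:**
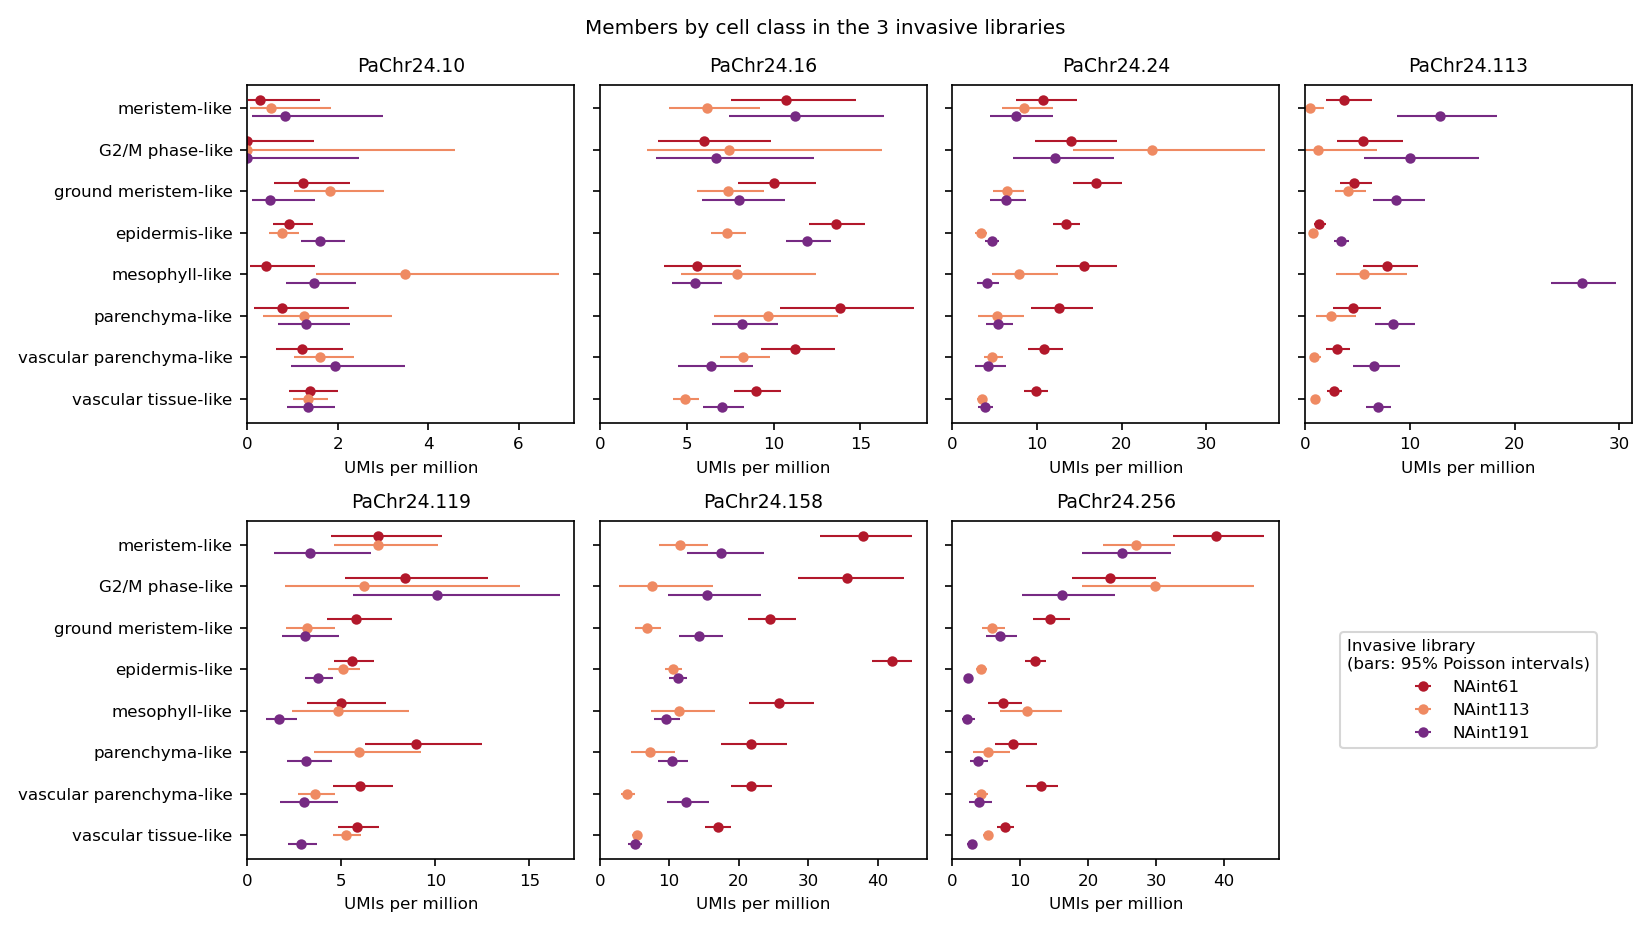
CPM (horizontal axis, from 0, with its own scale in each panel) of the 7 genes in 8 cell classes of NAint61, NAint113 and NAint191, with 95% Poisson intervals. PaChr24.256 was highest in the meristem-like and G2/M phase-like classes, PaChr24.113 was highest in NAint191 in every class and PaChr24.158 was highest in NAint61 in every class.

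PaChr24.158 and PaChr24.16 differed among the classes, with no class past the 2-fold limit. PaChr24.158 had 42.0, 10.5 and 11.22 CPM in epidermis-like cells of NAint61, NAint113 and NAint191, and 17.0, 5.32 and 5.04 in vascular tissue-like cells. Its log2 difference was 0.72 in epidermis-like cells (edgeR adjusted p = 0.00172), 0.64 in meristem-like cells (0.0235) and -0.79 in vascular tissue-like cells (0.00575), none past 1. PaChr24.16 had 13.57, 7.33 and 11.9 CPM in epidermis-like cells, a log2 difference of 0.75 (edgeR adjusted p = 0.00036). Epidermis-like cells were its highest named class in NAint191 only, and ranked 6 of 8 in NAint113. Parenchyma-like cells were its highest in NAint61 and NAint113. For PaChr24.158 the highest class was epidermis-like in NAint61 and meristem-like in NAint113 and NAint191. Among finer clusters with at least 20 cells in each invasive library, PaChr24.158 was highest in the one named after epidermal cell 1, at 32.3 CPM (18.8 to 57.7). The other epidermis-like clusters differed, with 25.6 CPM in protoderm 2 and 9.46 and 7.49 in those named after epidermal cell 2. PaChr24.158 was lowest in a bundle sheath-like cluster, at 3.84 (1.42 to 8.31), from 12 UMIs. Other bundle sheath-like clusters had 13.5 and 8.04 CPM. Without NAint61 neither gene passed the test of any difference among classes (edgeR adjusted p = 0.120 for PaChr24.158 and 0.199 for PaChr24.16).

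PaChr24.10 was not seen in the G2/M phase-like cells. It had 0 UMIs among the 4797517 UMIs of these 321 cells, which allows up to 0.625 CPM, and 317 UMIs, which is 1.258 CPM, in the other named classes together. Its fitted log2 difference there, -6.46 (edgeR adjusted p = 0.00972), rests on counts of 0 and gives no size, and 11.9% of all genes were called lower in this class. The higher level called in vascular parenchyma-like cells (log2 difference 1.45, edgeR adjusted p = 0.0319, with 5.48% of all genes called higher) came to 0.54 (adjusted p = 0.296) when the G2/M phase-like class was left out. That call was also lost whichever library was left out and with DESeq2, and the G2/M call was lost without NAint61 or NAint191 (edgeR adjusted p = 0.0820 and 0.0559). PaChr24.10 passed the test of any difference among classes (edgeR adjusted p = 0.0353). It did not pass whichever library was left out (0.0957 to 0.236), with no block (0.0703) or without the G2/M phase-like class (0.353).

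PaChr24.24 and PaChr24.119 had no class that was called. PaChr24.24 had 13.98, 23.6 and 12.08 CPM in G2/M phase-like cells of NAint61, NAint113 and NAint191 (log2 difference 0.76, edgeR adjusted p = 0.0254), and its test of any difference (edgeR adjusted p = 0.0314) was lost without NAint113 or NAint191 (0.256 and 0.162), with no filter on low counts (0.0617) and with no block (0.600). PaChr24.119 was the 1 gene that did not pass that test (edgeR adjusted p = 0.117), with class means between 3.81 ± 1.86 CPM in mesophyll-like and 8.23 ± 1.93 in G2/M phase-like cells (SD, n = 3).

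**Figure D3:**
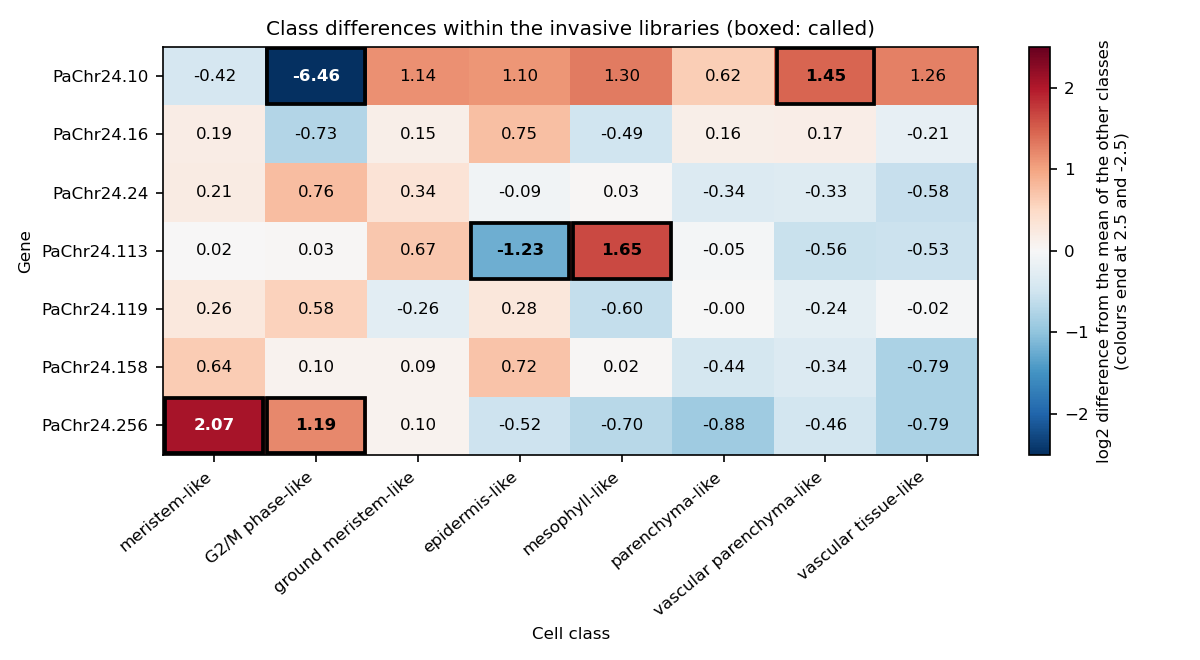
Log2 difference of each gene (rows) in each cell class (columns) from the mean of the other classes within the 3 invasive libraries, as fitted by edgeR, with the 6 called pairs boxed. The value of -6.46 for PaChr24.10 rests on 0 UMIs in the G2/M phase-like class.

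The genes most like each of the 7 were sought over 74 sums of library and cluster, by the correlation of log2 levels less the mean of the library, among 23919 genes. PaChr24.256 was most like PaChr1.2753 (r = 0.81), PaChr9.649 (0.80) and PaChr16.1496 (0.79), and the last is listed by the study as an ATK5 homologue, a kinesin, among markers of meristematic cells. PaChr24.24 was most like PaChr13.1025 (0.74), PaChr3.2393 (0.72) and PaChr11.1643 (0.72), and PaChr3.2393 is listed as an ENODL17 homologue among markers of the G2/M phase. The closest to PaChr24.158 were PaChr13.20, PaChr4.1222 and PaChr4.1248 (0.74 each), and the closest to PaChr24.113 was PaChr22.121 (0.63). For PaChr24.10 no gene exceeded 0.51. Among the 7 themselves the highest value was 0.49, between PaChr24.158 and PaChr24.256, and the lowest -0.37, between PaChr24.10 and PaChr24.24. The sums of a library share their cells' plant and preparation, so these values are descriptions.

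The section of NAint61 held 43513204 counts in 78619 segmented cells, with a median of 371 counts, far below the depth of the single-cell libraries. All 7 genes were present, and 7.10% of segmented cells had a count of at least 1 of them. PaChr24.158 had 1350 counts, or 31.0 CPM (29.4 to 32.7), PaChr24.24 had 1316 (30.2 CPM) and PaChr24.256 had 1264 (29.0 CPM). PaChr24.16 had 1100 (25.28 CPM), PaChr24.119 had 883 (20.3), PaChr24.113 had 364 (8.37) and PaChr24.10 had 255 (5.86).

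The levels in the section were set beside those of the single-cell library from that plant. PaChr24.158 was 1.097 times as high in the section as in the single-cell library of NAint61, PaChr24.256 was 2.241 times and PaChr24.10 was 5.81 times as high. The median gene was 1.94 times as high, over 21940 genes, and all but PaChr24.158 lay above it. The chemistry, the cells and the scaling differ between the assays, so these are values side by side.

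The counts of PaChr24.256, PaChr24.158 and PaChr24.16 lay mostly in one region of the section, and those of PaChr24.24 and PaChr24.119 did not. The section holds an upper and a lower piece of tissue, and PaChr24.256 had 56.1 CPM in the upper piece and 5.58 in the lower one. PaChr24.158 had 52.8 and 12.15, and PaChr24.24 had 39.7 and 22.0. PaChr24.119 had 484 counts in the upper piece, out of 20216822 of all genes, and 399 in the lower one, out of 23296382. A grid of tiles of 2500 image units was laid after the map had been seen, and 4 adjoining tiles were picked because these genes were dense there, so their values describe the region and test nothing. They held 67.4% of the PaChr24.256 counts, 65.5% of PaChr24.158 and 60.8% of PaChr24.16, with 26.6% of the counts of all genes. Their level there was 5.70, 5.23 and 4.275 times that elsewhere. The same ratio was 1.62 for PaChr24.24, 1.83 for PaChr24.119, 2.26 for PaChr24.113 and 2.57 for PaChr24.10.

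Over the 20 tiles with at least 500000 counts, PaChr24.158 ranged from 0 to 87.2 CPM with a median just under 15, and PaChr24.256 from 0.927 to 76.3 with a median of 16.2. PaChr24.24 ranged from 12.04 to 51.2 with a median of 27.2. The coefficient of variation over tiles was 1.02 for PaChr24.158, 0.985 for PaChr24.256, 0.910 for PaChr24.16 and 0.370 for PaChr24.24, next to a median of 0.558 over all genes. Between nearest segmented cells, Moran's I, which is 0 when neighbours are unrelated, ranged from 0.0785 for PaChr24.119 to 0.103 for PaChr24.10, next to a median of 0.0805 over 25830 genes. It was 0.101 for PaChr24.158, 0.0917 for PaChr24.256, 0.0883 for PaChr24.16, 0.0840 for PaChr24.24 and 0.0815 for PaChr24.113.

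**Figure D4:**
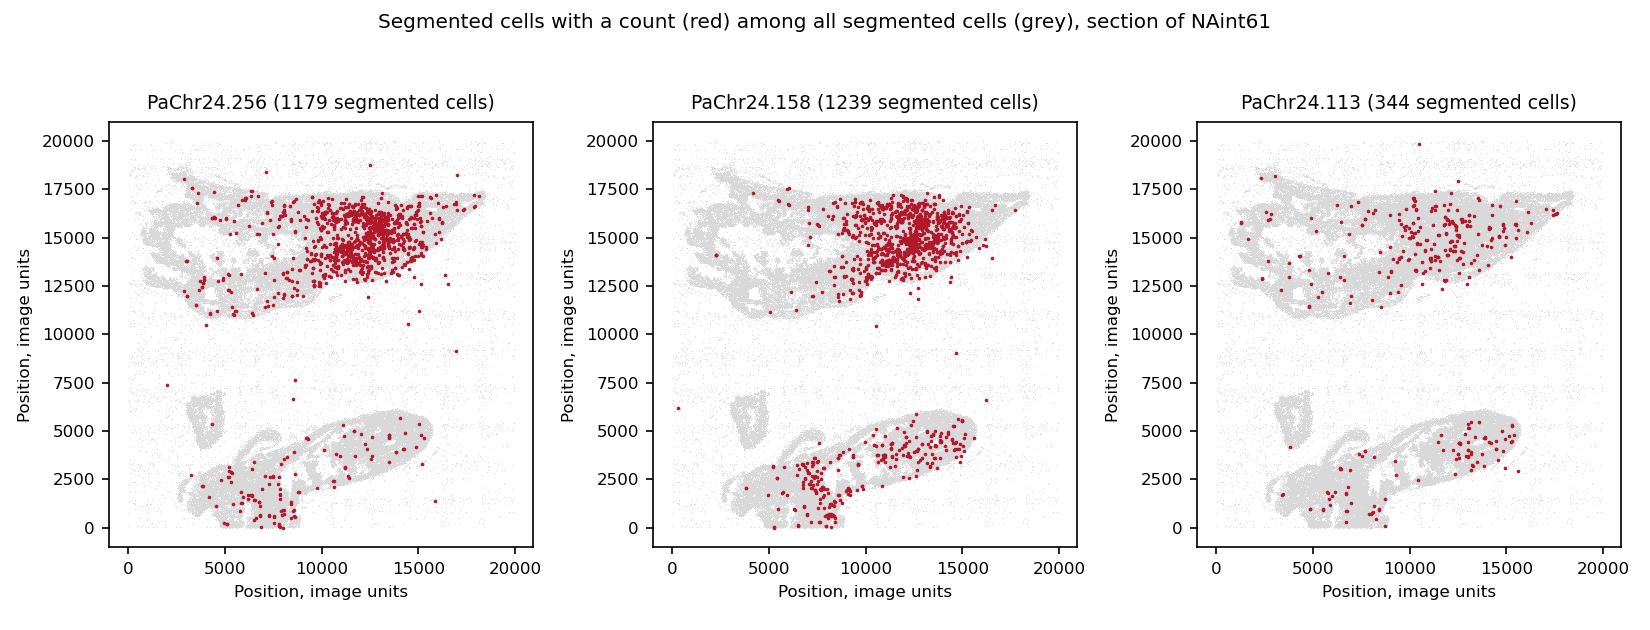
Position of segmented cells in the section of NAint61 (both axes in image units), with all 78619 in grey and those with a count of PaChr24.256 (1179), PaChr24.158 (1239) or PaChr24.113 (344) in red. The red cells of the first 2 genes are dense in the right part of the upper piece, where 4 tiles hold 67.4% and 65.5% of their counts.

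Marker lists were then used to see which cells of the section carried the genes. Segmented cells with at least 100 counts were ranked by the share of their counts on each list, and the top 10%, 6540 cells, was set against the rest. Such a group is a range of values and not a cell type. The meristem list had 12 genes and the vascular parenchyma list 7. Over the tiles with at least 500000 counts, the meristem list held 0.0343% to 0.219% of the counts. The median segmented cell had 371 counts, so a cell's rank can rest on very few marker counts. In the top 10% by the meristem list the ratios ran from 1.2656 for PaChr24.24 to 2.02 for PaChr24.256 (1.72 to 2.35), where the median gene was at 1.03. The interval of PaChr24.113 (0.937 to 1.876) held the median gene, and those of the other members lay above it. How many of all genes have such an interval was not counted, so nothing is read from this about the members as a set. In the top 10% by the vascular parenchyma list PaChr24.256 was at 2.08 (1.798 to 2.40) and PaChr24.158 at 1.96 (1.705 to 2.26), where the median gene was at 1.06.

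With the epidermis, vascular tissue and mesophyll lists the ratios of PaChr24.256 and PaChr24.158 were under that of the median gene. In the top 10% by the epidermis list PaChr24.256 was at 0.216 (0.156 to 0.291) and PaChr24.158 at 0.587, with the median gene at 0.757, and in that by the vascular tissue list PaChr24.158 was at 0.203 and PaChr24.256 at 0.286, with the median gene at 0.877. The mesophyll list gave 0.238 for PaChr24.256 and 0.372 for PaChr24.158, with the median gene at 0.771. PaChr24.119 was close to the median gene with the epidermis list (0.745) and the mesophyll list (0.786), and PaChr24.113 was at 1.06 with the vascular tissue list. PaChr24.256, called higher in meristem-like cells, was at 2.02 with the meristem list. With the G2/M phase list, also a called class, it was at 1.158 (0.910 to 1.46) where the median gene was at 1.02. The ranking took both pieces of tissue together. Among the tiles with at least 500000 counts, the one with the highest share of counts on the meristem list (0.219%) lay in the lower piece. PaChr24.256 had 6.46 CPM there, against 76.3 CPM in a tile of the upper piece with a share of 0.219%. The highest ratio of PaChr24.256 came with the vascular parenchyma list. In that class its log2 difference in the single cells was -0.46 (edgeR adjusted p = 0.170). PaChr24.158, which in NAint61 had its highest class level in epidermis-like cells, was below the median gene with the epidermis list (0.483 to 0.707). PaChr24.113, called higher in mesophyll-like cells, was at 0.650 with the mesophyll list, and its interval (0.422 to 0.964) held the median gene. The median counts per cell were 727 in the group by the epidermis list and 448 in its rest, and 372 and 477 for the meristem list.

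**Figure D5:**
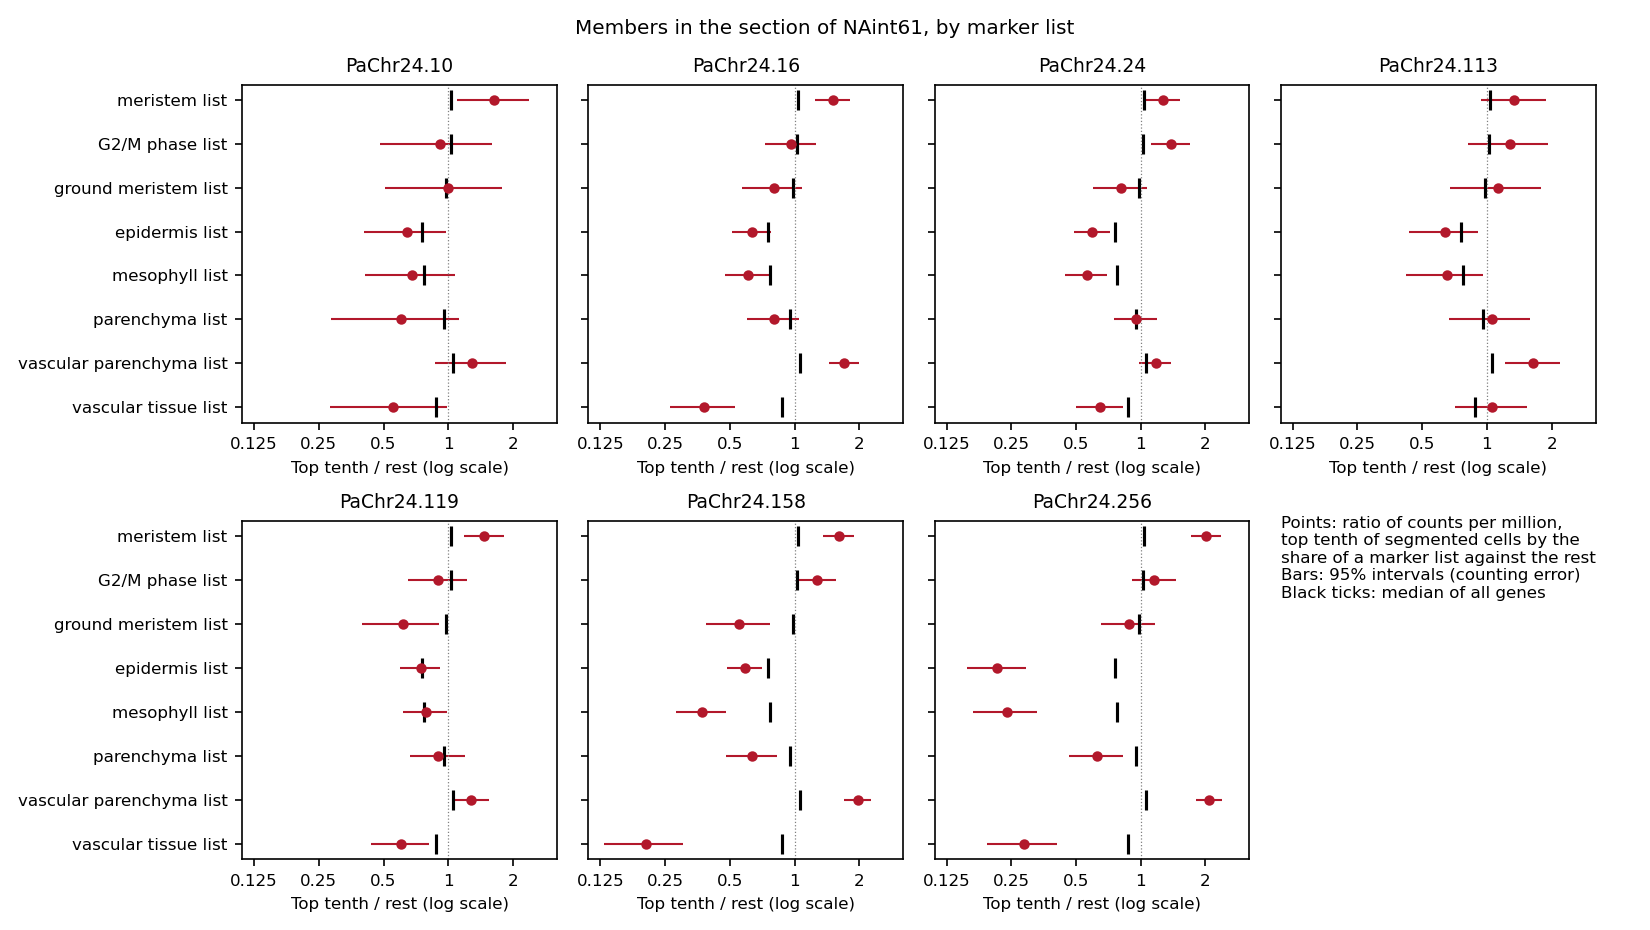
Ratio of CPM (horizontal axis, log scale) between the top 10% of segmented cells by each marker list and the rest, for the 7 genes in the section of NAint61, with 95% intervals for counting error and the median of all genes as a black tick. The meristem and vascular parenchyma lists gave the higher ratios, up to 2.08 for PaChr24.256, and the vascular tissue list the lowest, 0.203 for PaChr24.158.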

How the data were processed

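The authors aligned the single-cell reads with Cell Ranger 8.0 (8.0.1 in the file headers) to their assembly with transferred gene models, and deposited raw UMI counts per gene and called cell. They deposited the section as raw counts per segmented cell. Feature names lack the subgenome letter. Cells with fewer than 500 genes or over 30% of UMIs on unplaced scaffolds were removed, as was a share of doublets by Scrublet score. Clusters (Leiden, resolution 0.8; 28, of which 2 stayed unnamed) were built without B genes after alignment of libraries with Harmony, which had not converged after 10 rounds. Class sums of UMI counts were tested with edgeR 4.0.16 (TMM, at least 30 counts over all sums), tested on simulated data of 30681 genes. For the meristem class, 22% of genes changed by 1 and 97% of those changed by 2 on the log2 scale were recovered. The changed genes were drawn from those with many UMIs and simulated with a fixed spread. Recovery took the adjusted p alone, without the fold limit. The rates were not measured for scarce genes such as PaChr24.10. The block is the plant: sums of the same library deviated together from the class means (median correlation 0.648). Taking out the class means itself pushes the correlation between different libraries below 0 (median -0.307). That value therefore tells nothing about whether different libraries deviated together. Each library is 1 plant. With the plant as a block, the p-values rest on how far class differences vary among the 3 plants. Differences in overall level between the plants are taken out and not measured by them. Alternatives were DESeq2 1.42.0, other filters, resolution 1.2, a larger fold, no block, and each library left out. The members and lists were chosen with earlier results of these data known. The genes named are the 7, the study's 5, the neighbours of the rule (3 were to be named by lowest ratio, but 12 tied at 0) and the 3 most alike by correlation among genes with at least 300 UMIs. The test of the populations was left out because it chose the genes.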

Additional observations from a re-analysis of the deposited data

How the results depend on the processing

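The number of called pairs of gene and class was 6. It fell to 2 with no replicate block for the plant and to 2 with a log2 limit of 2, and it was 3 without the G2/M phase-like class, an alternative added after the data had been seen. It ranged from 4 to 7 when 1 invasive library was left out and was within 1.5 times of 6 under the other alternatives. The number of genes differing among classes was 6, fell to 2 without the block and ranged from 3 to 4 with 1 library left out, 3 being without NAint61. Without the block, PaChr24.256 in meristem-like cells (1.99) and PaChr24.10 in G2/M phase-like cells were called. DESeq2 called 5 pairs. None of the 6 pairs turned its direction under these alternatives. The share of invasive cells with a UMI of any of the 7 genes was 28.9% and came to 9.001% after thinning to 2000 UMIs per cell. The summed level ranged from 36.7 to 58.1 CPM in the invasive plants and from 0.171 to 0.327 in the European ones with 1 library left out. In the section, the median Moran's I of the 7 genes was 0.0883 with 6 neighbours and 0.0538 with 12. Depth limits the scarcer genes: PaChr24.10 rests on 325 UMIs, and with 3 plants per population, 1 section and clusters rebuilt here, small differences were not detectable.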
